A study of Mus musculus with 33 samples.

Results

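The 9 genes described here build the outer epithelium of the mouse blastocyst and the cavity it encloses. They are the keratins Krt7, Krt8, Krt18 and Krt19, the claudins Cldn4, Cldn6 and Cldn7, the sodium pump subunit gene Atp1b1 and the water channel gene Aqp3. They were chosen by name, as every non-control probe of the array that carries one of these 9 gene names. That gave 11 of the 41174 probes on the array and 9 of its 27670 genes, with a pair of probes each for Krt7 and Krt8 and a single probe for each of the others. All 9 passed the filter on dim probes, among 15792 genes tested.

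The RNA of 33 single blastocysts was hybridised, 1 embryo to an array, to ask how embryos cloned from adult neurons compare in expression with embryos from fertilisation and from other donor cells. All embryos had the (C57BL/6NxDBA/2)F1 background. Fertilised controls came from in vitro fertilisation (IVF), with 7 male and 3 female blastocysts. Clones were made by moving a donor nucleus into an oocyte, from adult Purkinje cells (4 male, 4 female), adult CA1 pyramidal cells of the hippocampus (4 male, 4 female), neonatal Sertoli cells of the testis (4, male) or adult cumulus cells of the ovary (3, female). Every clone was labelled as treated with trichostatin A (TSA), a histone deacetylase inhibitor. TSA stood at 50 nM through 1 h of activation, then in 5 h of culture with cytochalasin B and for another 2 h, and the embryos were cultured for 96 h. The protocol describes TSA for reconstructed oocytes only. TSA and nuclear transfer therefore cannot be told apart in any comparison with IVF. Numbers of donor animals and of nuclear transfer sessions are not in the labels, so p-values here measure only the spread between these embryos.

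The trophectoderm is the first epithelium of the embryo and later forms the placenta. Keratin filaments, made of a type II partner such as Krt8 or Krt7 with a type I partner such as Krt18 or Krt19, run through its cells to the desmosomes. Claudins seal the tight junctions between those cells, the sodium pump in the basolateral membrane drives sodium into the cavity, and water follows, in part through aquaporins, so that the cavity fills. In RNA from a whole blastocyst, fewer cells of a type and less RNA per cell cannot be told apart.

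Each value is the log2 of a probe's processed signal over the 75th percentile of that array, called its log2 level: 0 is the brightness of the 75th percentile, and each step of 1 doubles it. Values were floored at -3.43. The 10 IVF and 3 cumulus arrays belong to an earlier set from the same laboratory, read on another scanner model, and the 20 Purkinje, CA1 and Sertoli arrays to the present set. Each clone group lay on a slide of its own. In comparisons of those 5 groups with IVF, the donor cell and the array set therefore cannot be told apart, and in comparisons between donors the donor and the slide cannot be told apart. The Purkinje arrays were the dimmest, with a 75th percentile of 229.7 to 659.1 (male) and 353.8 to 838.0 (female) beside 904.3 to 1466 elsewhere. Spots with a processed signal of 0 or less made up 15.7 to 23.3% on the earlier arrays and 0% on the present arrays. Signals near the floor were thus not reported alike in the array sets. Signals of all 11 member probes were well above background on every array except Krt19 on 3, and member spots reached at most 86.2% of the saturation value.

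Against same-sex IVF embryos, no member was called higher in any of the 6 clone groups, and Krt7 was called lower in all groups but the cumulus clones. A call is an adjusted p under 0.05 in limma's moderated test over all 33 arrays, adjusted by Benjamini-Hochberg over the 15792 genes. Male Purkinje clones had 3 of 9 members called, all lower (Krt7, Cldn4, Cldn6), where 28.6% of all genes were called, 18.3% higher and 10.3% lower. Male CA1 clones had 3 of 9, all lower (Krt7, Krt18, Cldn7), where 31% of all genes were called, 17.7% higher and 13.3% lower. Sertoli clones had 3 of 9, all lower (Krt7, Krt18, Cldn4), where 25.8% were called, 15% higher and 10.8% lower.

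In female embryos, Purkinje clones had 1 of 9 members called (Krt7, lower), against 19.7% of all genes called, 13% higher and 6.67% lower. CA1 clones had 2 of 9, both lower (Krt7, Krt18), against 13.3% called, 8.41% higher and 4.88% lower. Cumulus clones had 0 of 9 by limma, with 3 members (Krt7, Krt18, Cldn7) at an unadjusted p under 0.05, where 5.31% of all genes were called, 1.95% higher and 3.36% lower. With so few members, 1 to 3 of 9 called is near the share of all genes called in either direction. The 6 comparisons share their IVF controls within each sex, so their values stand side by side as descriptions and do not count as separate evidence. The median log2 change over the 9 members was 0.47 in cumulus clones, -0.64 in Sertoli clones, -0.11 and 0.21 in Purkinje clones (male, then female) and -0.15 and -0.58 in CA1 clones. Over all genes that median lay between -0.02 and 0.08 in these 6 comparisons.

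**Figure D1:**
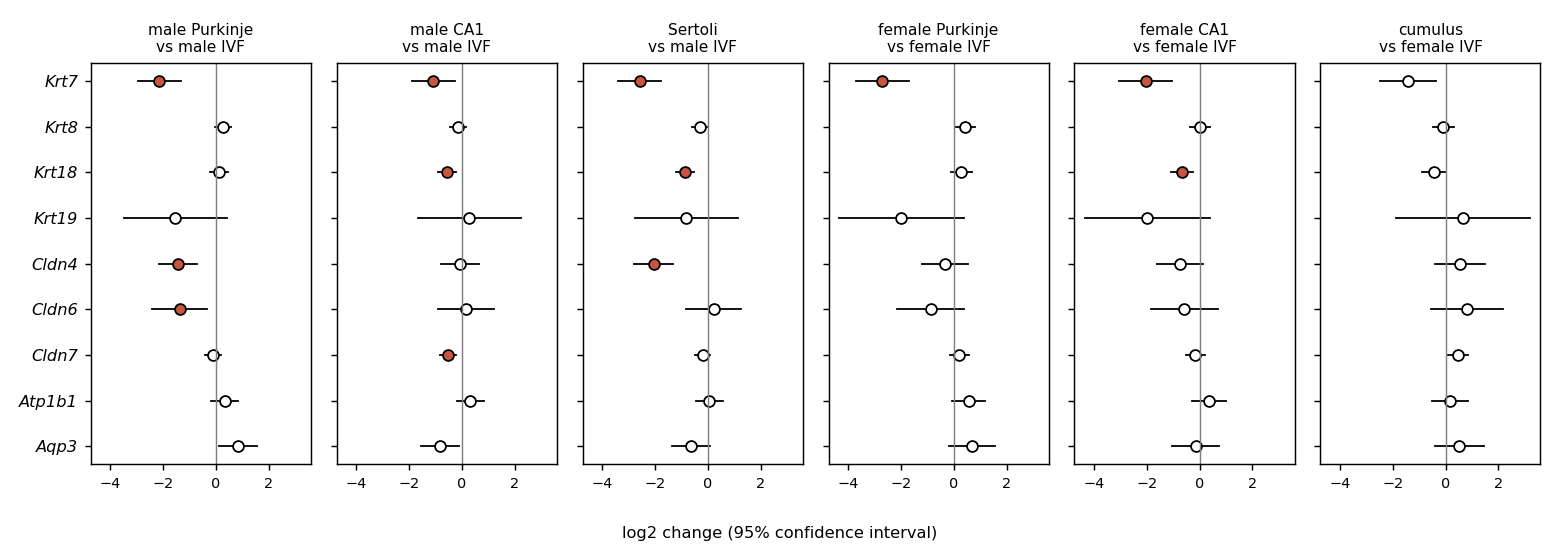
Log2 change of each of the 9 members in the 6 clone groups against same-sex IVF blastocysts. Points are limma estimates from the brightest probe of each gene, lines their 95% confidence intervals, and filled points the values called lower at an adjusted p under 0.05. Krt7 lies left of 0 in all 6 panels, from -1.08 to -2.70, Krt8 lies within 0.44 of 0, and Krt19 has the widest intervals.

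Krt7, a type II keratin of simple epithelia, was the member with the largest differences from IVF. Its promoter is shown with those of Krt8 and Krt18, the pair that varied together most closely among the embryos. Each sequence is the 250 bases before the start site in RefSeq's annotation of GRCm38.p6, read 5′ to 3′ on the gene's own strand: Krt7 at chr15:101412153-101412402 on the plus strand, Krt8 at chr15:102004343-102004592 on the minus strand and Krt18 at chr15:102027966-102028215 on the plus strand. Capitals mark exact matches, on either strand, to a TATA box (TATAAA), a GC box bound by Sp and Klf factors (GGGCGG), a Klf CACCC box (CCACCC), a Tead motif (GGAATG), an AP-2 motif (GCCNNNGGC) or a Gata motif (AGATAA).
Krt7: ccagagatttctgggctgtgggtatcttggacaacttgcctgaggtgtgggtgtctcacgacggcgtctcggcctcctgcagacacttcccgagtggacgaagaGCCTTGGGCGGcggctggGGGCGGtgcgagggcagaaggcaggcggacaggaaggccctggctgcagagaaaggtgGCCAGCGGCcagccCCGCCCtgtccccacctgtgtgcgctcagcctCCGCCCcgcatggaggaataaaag
Krt8: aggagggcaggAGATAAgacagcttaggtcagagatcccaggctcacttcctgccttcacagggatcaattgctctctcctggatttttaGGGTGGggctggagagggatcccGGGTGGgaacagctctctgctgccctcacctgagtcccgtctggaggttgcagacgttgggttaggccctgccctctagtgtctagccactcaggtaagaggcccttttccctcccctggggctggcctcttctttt
Krt18: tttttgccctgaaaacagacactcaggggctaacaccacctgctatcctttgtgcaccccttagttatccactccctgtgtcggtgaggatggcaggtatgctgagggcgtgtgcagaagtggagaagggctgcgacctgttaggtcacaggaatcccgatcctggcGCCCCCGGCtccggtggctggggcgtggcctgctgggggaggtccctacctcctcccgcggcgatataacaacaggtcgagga
The Krt7 window held 4 GC boxes and 2 AP-2 motifs, the first AP-2 match overlapping a GC box. The Krt8 window held 2 CACCC boxes and 1 Gata motif, and the Krt18 window held 1 AP-2 motif. Over 32851 RefSeq promoter windows of the same length, 32.7% held a GC box, 28.1% a CACCC box, 13.7% an AP-2 motif and 9.99% a Gata motif. Such a match describes letters in the window and does not show a site in use. RefSeq windows were matched for 8 of the 9 members, all but Krt19.

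The brighter Krt7 probe (AK137217 in the array's design) had log2 levels from 3.39 to 4.87 with a median of 3.98 on the 7 male IVF arrays. The 4 male Purkinje clones had 2.15, 1.32, 2.90 and 1.88, and the 4 Sertoli clones had 1.1, 1.76, 1.07 and 2.58. Male CA1 clones had 2.26, 3.76, 3.38 and 3.11. All Purkinje and Sertoli embryos lay below all male IVF embryos, whereas 1 CA1 embryo lay inside the IVF range. In females the IVF embryos had 3.73, 3.96 and 3.56, the Purkinje clones 1.90, 1.07, 1.18 and 0.04, and the CA1 clones 1.06, 2.97, 0.83 and 1.96. Cumulus clones had 2.34, 2.69 and 1.99. All 11 female clones lay below the 3 female IVF embryos.

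Relative to IVF, Krt7 on this probe was 4.44-fold lower in male Purkinje clones (log2 change -2.15, SE 0.40, limma adjusted p = 0.00025) and 5.98-fold lower in Sertoli clones (-2.58, SE 0.40, adjusted p = 3.33e-05). It was 6.51-fold lower in female Purkinje clones (-2.70, SE 0.49, adjusted p = 0.000388) and 4.12-fold lower in female CA1 clones (-2.04, SE 0.49, adjusted p = 0.00578); the latter was not called in a fit of those groups alone (adjusted p = 0.0968). The male CA1 difference was the smallest of those called, at 2.12-fold (-1.08, SE 0.40, adjusted p = 0.0397). That call ended with slide as a random block (-1.09, adjusted p = 0.0538) and with no filter on dim probes (adjusted p = 0.0817). It was not called with male CA1 replicate 1, 3 or 4, or male IVF replicate 1, 6 or 7, left out in turn (-0.79 to -1.16, adjusted p 0.0535 to 0.181). Cumulus clones were 2.66-fold lower, which was not called (-1.41, SE 0.52, adjusted p = 0.109), with all 3 embryos below the 3 IVF embryos. With the 5 dimmest Purkinje arrays (75th percentile below 500) left out, which left a single female Purkinje array, the female Purkinje difference was -1.85 and was not called (adjusted p = 0.196), while the male one was -2.48 and was.

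The dimmer Krt7 probe (NM_033073) gave a larger difference in the same direction. Male IVF embryos ran from 1.05 to 3.01 with a median of 1.38, and female IVF embryos had 0.91, 1.48 and 0.98. Male Purkinje clones had -1.49, -1.79, -1.51 and -1.70, male CA1 clones -1.99, -0.26, -1.58 and -2.29, and Sertoli clones -2.26, -1.93, -2.39 and -1.45. Female Purkinje clones had -1.61, -2.85, -1.96 and -3.04, and female CA1 clones -3.43, which is the floor, -0.90, -2.63 and -2.16. Cumulus clones had 0.30, 0.64 and -0.12. All 20 arrays of the present set therefore lay below all 13 arrays of the earlier set, cumulus clones included. Of the 22788 probes that passed the filter, 22 (0.0965%) were separated in that direction and 75 (0.329%) in the other; this was the 1 member probe among them, and on the brighter Krt7 probe the sets overlapped.

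With the dimmer probe standing for the gene, a choice made after seeing the data, Krt7 was 10.7-fold lower in male Purkinje, 10.1-fold in male CA1 and 14.1-fold in Sertoli clones (limma adjusted p 3.25e-06, 1.13e-06 and 3.53e-07). It was 11.2-fold lower in female Purkinje and 10.6-fold lower in female CA1 clones (adjusted p 6.42e-05 and 8.84e-05). In cumulus clones, the clone group that shares the earlier set with IVF, it was 1.80-fold lower and not called (-0.85, SE 0.55, adjusted p = 0.443). The part of the array set in these differences cannot be told apart from that of the donor cells. Within the present set the dimmer probe showed no called difference between donors: Purkinje against CA1 gave -0.09 in males and -0.08 in females (adjusted p 1 for both).

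**Figure D2:**
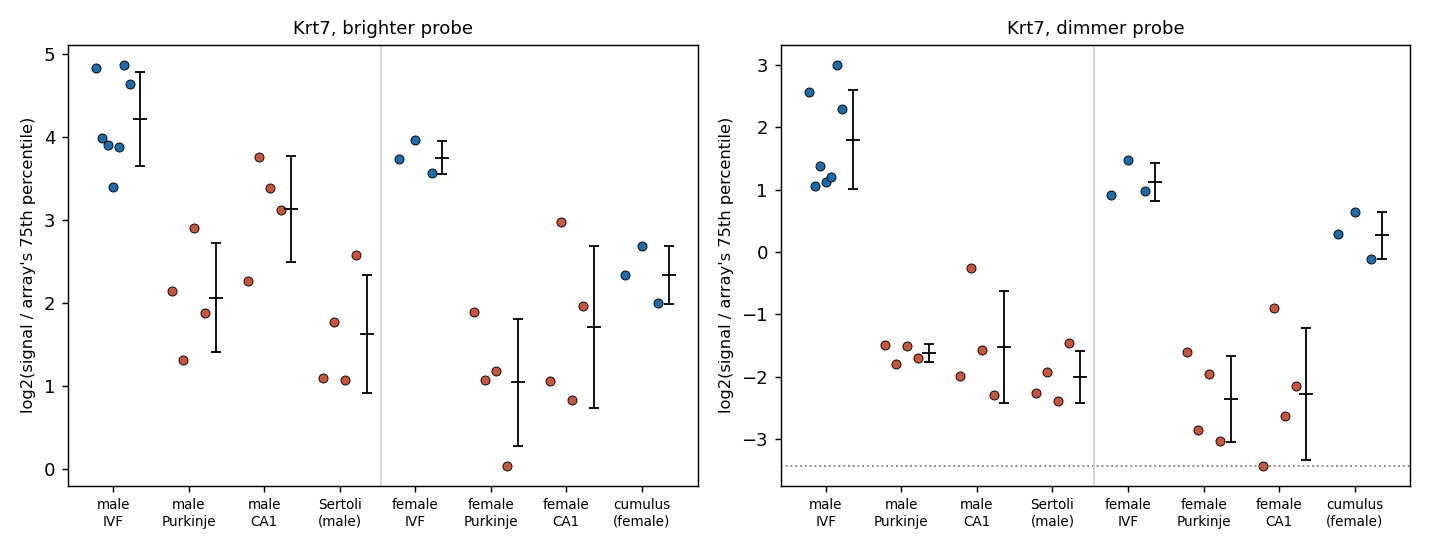
Log2 level of Krt7 on its brighter (left) and dimmer (right) probe in each of 33 blastocysts by group; blue points are arrays of the earlier set and red points arrays of the present set, bars are mean and SD, and the dotted line is the floor at -3.43. On the dimmer probe all red points lie below all blue points, and on the brighter probe male CA1 clones reach into the IVF range.

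Krt8 and Krt18 are the type II and type I keratins that pair in the trophectoderm. On its brighter probe, used in what follows, Krt8 was not called against IVF in any group. Male IVF embryos had log2 levels of 8.24 to 9.23 with a median of 8.66, and the group means of all 8 groups lay between 8.37 (cumulus) and 8.99 (male Purkinje), each overlapping the next in that order. Its changes against IVF in male Purkinje, male CA1 and Sertoli clones were 0.26, -0.15 and -0.30, with 95% intervals of -0.05 to 0.56, -0.45 to 0.15 and -0.60 to 0.00. In the female Purkinje, CA1 and cumulus groups they were 0.44, 0.01 and -0.08, with intervals of 0.07 to 0.80, -0.35 to 0.38 and -0.47 to 0.31. The second Krt8 probe was called in the Sertoli clones, where it was 1.37-fold lower (-0.46, SE 0.15, limma adjusted p = 0.0340). In Purkinje clones the changes of the second probe against IVF were -0.17 (male) and 0.06 (female), neither called, beside 0.26 and 0.44 on the brighter probe. On that probe the highest group mean was that of male IVF embryos (8.57), with male Purkinje clones at 8.40. After quantile normalization the brighter probe was called lower in Purkinje than in CA1 clones of both sexes. The changes were -0.57 in males and -0.60 in females (limma adjusted p 0.0056 and 0.0064).

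Krt18 was called lower than IVF in CA1 clones of both sexes and in Sertoli clones, and was not called in Purkinje clones. Male IVF embryos had 8.21 to 9.09 with a median of 8.83, male CA1 clones 7.94, 8.22, 8.09 and 8.14, and Sertoli clones 7.77, 7.64, 7.75 and 7.97. All Sertoli clones and 3 of 4 CA1 clones lay below every male IVF embryo. The log2 change was -0.55 in male CA1 (SE 0.16, limma adjusted p = 0.0110), -0.87 in Sertoli (SE 0.16, adjusted p = 0.000309) and -0.67 in female CA1 clones (SE 0.20, adjusted p = 0.0254). Female CA1 embryos had 8.0, 7.72, 7.37 and 7.74, below the female IVF values of 8.24, 8.69 and 8.19. That call was lost without female IVF replicate 2 (-0.51, adjusted p = 0.151) or female CA1 replicate 3 (-0.56, adjusted p = 0.0739). With normexp background correction none of the 3 calls held (-0.48, -0.84 and -0.88, adjusted p 0.314, 0.0763 and 0.197), and after quantile normalization the male CA1 change was -0.19 (adjusted p = 0.280). In cumulus clones the change was -0.45 (SE 0.21, adjusted p = 0.226), with values of 8.06, 7.82 and 7.91 that were all below the female IVF embryos.

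Purkinje clones had Krt18 levels of 8.49, 8.53, 8.88 and 9.12 in males and 8.51, 8.75, 8.57 and 8.83 in females. Krt18 was 1.58-fold higher in male Purkinje than in male CA1 clones (limma adjusted p = 0.0136), 1.96-fold higher than in Sertoli clones (adjusted p = 0.00181) and 1.94-fold higher in female Purkinje than in female CA1 clones (adjusted p = 0.00146), with no overlap in any of the 3. The 3 calls held when arrays were scaled on probes detected on all arrays, but not under quantile normalization or normexp (0.00, 0.36 and 0.60 with the latter, adjusted p 1, 0.483 and 0.288). After quantile normalization the 3 differences were -0.19, 0.12 and 0.14 (adjusted p 0.422, 0.778 and 0.62), and the male Purkinje change against IVF turned from 0.10 to -0.38 (adjusted p = 0.0318). Between embryos of a group, Krt18 and Krt8 ran against the brightness of the array, with correlations to the log2 75th percentile of -0.59 and -0.46 over 33 arrays. Without the 5 dim Purkinje arrays the 3 differences were 0.41, 0.73 and 0.80 and none was called (adjusted p 0.320, 0.107 and 0.303), and without male Purkinje replicate 4 the difference from CA1 was 0.54 (adjusted p = 0.0707).

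The difference between Krt18 and Krt8 on the same array does not involve the array's scale. It can still vary with the array's brightness, against which Krt18 and Krt8 ran unequally (correlations of -0.59 and -0.46). Krt8 is taken here from its brighter probe. Male IVF embryos averaged -0.08 ± 0.20 (SD, n = 7), and female IVF embryos -0.07 ± 0.16 (n = 3). It was -0.65 ± 0.20 in Sertoli (n = 4), -0.76 ± 0.14 in female CA1 (n = 4) and -0.44 ± 0.05 in cumulus clones (n = 3), and every embryo of those 3 groups lay below all same-sex IVF embryos. Male CA1 clones averaged -0.48 ± 0.14, with 3 of 4 below. The Purkinje clones were nearest to IVF, at -0.23 ± 0.27 in males and -0.22 ± 0.15 in females. Against IVF the mean was thus shifted by -0.40 in male CA1, -0.57 in Sertoli, -0.68 in female CA1 and -0.37 in cumulus clones, and by -0.15 in Purkinje clones of each sex. In the Purkinje groups 1 of 4 male and 3 of 4 female embryos lay below all IVF embryos. The Purkinje shift depended on the Krt8 probe. On the second probe Krt8 changed against IVF by -0.17 in male and 0.06 in female Purkinje clones. Krt18 changed there by 0.10 and 0.29, so with that probe the Purkinje shift was positive. In the other clone groups the shift was negative with either probe. From the brightest array to the dimmest (replicates 1 to 4), male Purkinje clones had Krt18 at 8.49, 8.53, 8.88 and 9.12. Krt8 on its brighter probe was 8.73, 9.14, 8.96 and 9.13. The brightest female Purkinje array (replicate 1) had 8.51 and 8.81, and the dimmest (replicate 2) 8.75 and 9.02. No test was run on the difference between Krt18 and Krt8 or on its relation to array brightness.

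**Figure D3:**
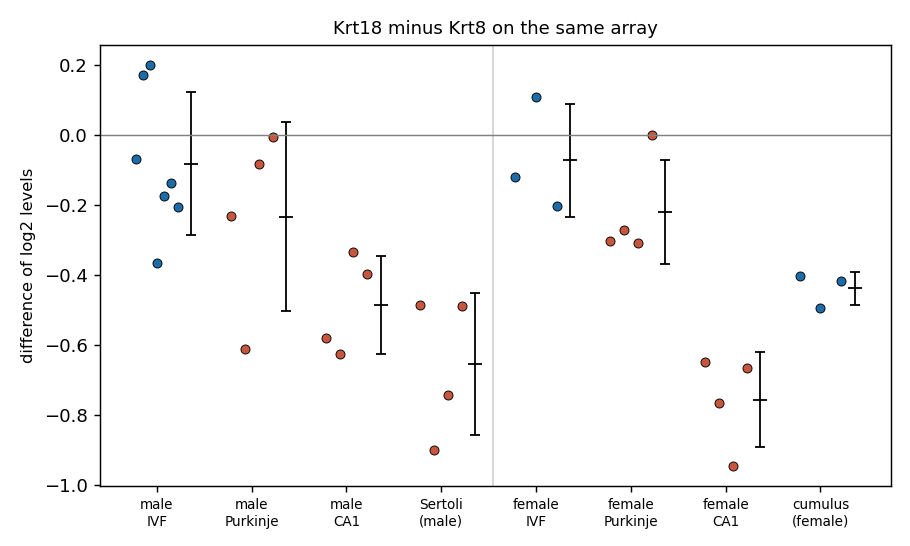
Krt18 minus Krt8, as the difference of their log2 levels on the same array, in each of 33 blastocysts by group; blue points are the earlier and red points the present array set, and bars are mean and SD. Krt8 is taken from its brighter probe. Sertoli, female CA1 and cumulus clones lie below all IVF embryos of their sex, and Purkinje clones overlap them.

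Krt19, a type I keratin, varied widely between sister embryos. Its SD within groups was 1.60, higher than for 99.7% of the genes tested, whose median was 0.45. Male IVF embryos ran from -2.65 to 0.98 with a median of -0.48, and cumulus clones had -2.17, 1.42 and 2.22. Sertoli clones had -3.43, 1.16, -3.43 and -1.14, male Purkinje clones -3.43, -0.04, -3.43 and -2.78, and male CA1 clones 0.04, -1.91, -2.24 and 1.70. Values of -3.43 are the floor and have no order. The lowest and highest sister embryos thus lay several log2 steps apart in each of these clone groups. Female IVF embryos had 0.91, -0.96 and -0.51, female Purkinje clones -1.37, -2.18, -1.70 and -3.43, and female CA1 clones -1.76, -2.76, -3.43 and -0.72. Every female Purkinje embryo lay below the female IVF embryos. No comparison called Krt19; the estimates against IVF ran from -1.98 in both female Purkinje and female CA1 clones to 0.68 in cumulus clones, with 95% intervals of -4.36 to 0.39 for each of the first pair.

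Cldn4, a tight junction claudin, was called lower in Sertoli and male Purkinje clones and was not called in male CA1 clones. The 7 male IVF embryos ran from 0.16 to 2.50 with a median of 1.86. Sertoli clones had -0.63, -0.60, 0.05 and -0.38, all below IVF, and male Purkinje clones had -0.27, 0.71, 0.19 and 0.25, of which 1 lay below. Male CA1 clones had 2.22, 1.76, 1.49 and 0.90. Cldn4 was 4.16-fold lower in Sertoli (log2 change -2.06, SE 0.35, limma adjusted p = 0.000109) and 2.72-fold lower in male Purkinje clones (-1.44, SE 0.35, adjusted p = 0.00303), and differed by -0.07 in male CA1 clones (95% interval -0.79 to 0.65). Without the dim Purkinje arrays the Purkinje change was -1.44 and not called (adjusted p = 0.0548).

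Its promoter window, at chr5:134946935-134947184 on the minus strand, held 1 of the motifs searched, a GC box in capitals.
Cldn4: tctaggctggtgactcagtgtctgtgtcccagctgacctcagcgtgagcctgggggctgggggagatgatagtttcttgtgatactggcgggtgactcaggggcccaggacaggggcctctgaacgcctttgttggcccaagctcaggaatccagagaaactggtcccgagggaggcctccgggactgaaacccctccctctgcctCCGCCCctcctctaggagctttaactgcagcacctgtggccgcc
Between donors, Cldn4 was 3.95-fold higher in male CA1 than in Sertoli clones (1.98, SE 0.40, limma adjusted p = 0.00203), with every CA1 embryo above every Sertoli embryo, and this was called under all 13 other settings and with each embryo left out. It was 2.59-fold lower in male Purkinje than in male CA1 clones (-1.37, SE 0.40, adjusted p = 0.0165), again with no overlap; without male CA1 replicate 1 the difference was -1.16 (adjusted p = 0.0619), and without the dim Purkinje arrays -1.37 (adjusted p = 0.145). Female embryos showed no called difference. Female Purkinje clones had 0.43, 0.46, 0.37 and 1.48, female CA1 clones 0.57, -0.11, -0.10 and 0.74, and cumulus clones 0.97, 1.52 and 2.23, beside IVF values of 0.85, 0.89 and 1.33. The sex difference of the Purkinje effect was -1.1 (95% interval -2.24 to 0.03, adjusted p = 0.662).

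Cldn6, a claudin of embryonic epithelia, was 2.59-fold lower in male Purkinje clones (-1.37, SE 0.51, limma adjusted p = 0.0433). Those 4 embryos had -0.79, 0.17, -1.43 and -2.52, against -0.56 to 0.79 with a median of 0.42 in male IVF, and 1 lay inside the IVF range. The call was lost under 7 of 14 other settings, among them the omission of the dim Purkinje arrays (-0.54, adjusted p = 0.634), normexp (-0.78, adjusted p = 0.153) and slide as a random block (-1.38, adjusted p = 0.0582). It was also lost with male Purkinje replicate 1, 3 or 4, or male IVF replicate 1, 2, 5, 6 or 7, left out in turn; the change was then -0.91 to -1.49. In the other 5 groups the changes against IVF ran from -0.87 to 0.82 and none was called.

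Cldn7, a claudin that also lies along the lateral membrane, varied little between embryos (SD within groups 0.21). It was 1.44-fold lower in male CA1 clones (-0.53, SE 0.14, limma adjusted p = 0.00586), which had 6.76, 6.90, 6.65 and 6.27 against 6.79 to 7.54 with a median of 7.13 in male IVF; 3 of 4 lay below. The call was lost with normexp background correction (-0.61, adjusted p = 0.130). Cumulus clones had 7.5, 7.78 and 7.54, above the female IVF values of 7.19, 7.0 and 7.23, a difference of 0.47 that was not called (SE 0.19, adjusted p = 0.138).

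Atp1b1 encodes the beta subunit that brings the sodium pump to the membrane. It was called in none of the 11 comparisons between groups. Group means ran from 4.86 (female IVF) to 5.42 (female Purkinje), each group overlapping the next in that order, and the 6 changes against IVF were 0.06 to 0.56, with a lowest 95% bound of -0.50 and a highest of 1.19. The most variable group was female CA1, with 6.12, 5.07, 4.28 and 5.40.

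Aqp3, a channel for water and glycerol, was not called against IVF either, but differed between clones of different donors. Male Purkinje clones had 4.18, 4.74, 5.76 and 6.12, male CA1 clones 3.89, 2.94, 4.09 and 3.19, and Sertoli clones 3.75, 4.19, 3.91 and 3.09. Male IVF embryos ran from 3.89 to 4.86 with a median of 4.37 and overlapped all 3 groups; their mean of 4.37 lay below that of Purkinje clones (5.20) and above those of CA1 (3.53) and Sertoli clones (3.74). The changes against IVF were 0.83 in Purkinje, -0.84 in CA1 and -0.64 in Sertoli clones (limma adjusted p 0.0793, 0.0700 and 0.194). Aqp3 was 3.19-fold higher in male Purkinje than in male CA1 clones (1.67, SE 0.40, adjusted p = 0.00459), with no overlap, and 2.76-fold higher than in Sertoli clones (1.46, SE 0.40, adjusted p = 0.0294). In females, Purkinje clones had 4.67, 4.33, 5.53 and 5.43 and CA1 clones 3.56, 3.72, 4.99 and 4.34, a difference of 0.84 that was not called (adjusted p = 0.188).

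Without the dim Purkinje arrays the 2 male differences in Aqp3 were 0.93 and 0.72 (limma adjusted p 0.245 and 0.533), and with normexp 1.13 and 0.85 (adjusted p 0.101 and 0.247). In a fit of only the groups compared neither was called (adjusted p 0.0684 and 0.187). The difference from Sertoli clones was called under 7 of 14 other settings, and was lost among others under quantile normalization, median scaling and slide as a random block (adjusted p 0.0578, 0.0892 and 0.0508). It was also not called without male Purkinje replicate 3 or 4, or Sertoli replicate 1, 3 or 4 (1.16 to 1.52, adjusted p 0.0505 to 0.151). The window before the start site of Aqp3, at chr4:41098184-41098433 on the minus strand, is the 1 member window with a TATA box; it also held 3 CACCC boxes and 1 GC box. Over all 32851 windows 12.4% held a TATA box.
Aqp3: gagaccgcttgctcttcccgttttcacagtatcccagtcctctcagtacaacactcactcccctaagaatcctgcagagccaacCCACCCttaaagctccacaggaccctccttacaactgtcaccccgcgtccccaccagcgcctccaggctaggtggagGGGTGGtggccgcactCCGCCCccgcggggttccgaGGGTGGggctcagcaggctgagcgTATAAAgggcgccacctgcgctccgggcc

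**Figure D4:**
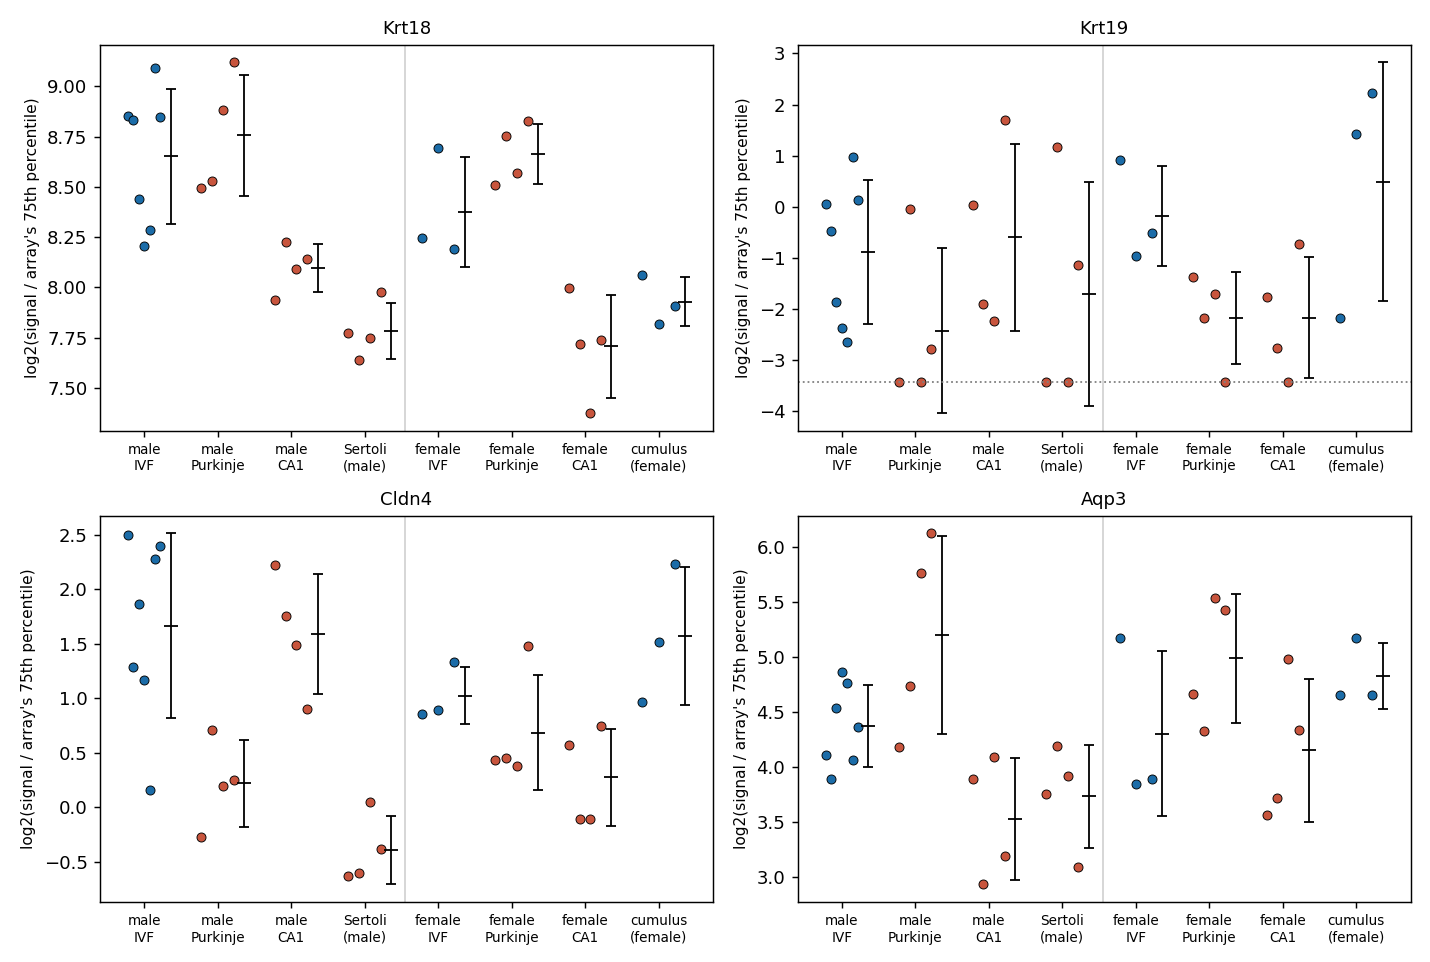
Log2 levels of Krt18, Krt19, Cldn4 and Aqp3 in each of 33 blastocysts by group; blue points are the earlier and red points the present array set, bars are mean and SD, and the dotted line in the Krt19 panel is the floor at -3.43. Krt18 is low in CA1, Sertoli and cumulus clones, Krt19 spreads widely in most groups, and Cldn4 is lowest in Sertoli clones. The mean of Aqp3 is highest in Purkinje clones in each sex, but female Purkinje clones overlap all other female groups.

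Counted over the donor comparisons, male Purkinje against CA1 clones gave 3 of 9 members called (Krt18 and Aqp3 higher, Cldn4 lower), where 18.5% of all genes were called, 10.9% higher and 7.59% lower. Female Purkinje against CA1 clones gave 1 (Krt18, higher), with 11% of all genes called, 6.19% higher and 4.83% lower. Male Purkinje against Sertoli clones gave 2 (Krt18 and Aqp3, higher), with 4.79% called, 3.36% higher and 1.42% lower. Male CA1 against Sertoli clones gave 2 (Krt7 and Cldn4, higher), with 11.8% called, 5.52% higher and 6.32% lower. The last of these Krt7 differences was 2.83-fold on the brighter probe (1.5, SE 0.45, limma adjusted p = 0.0296) and 0.48 on the dimmer one (adjusted p = 0.646). On the brighter probe it was not called without male CA1 replicate 2, 3 or 4 or Sertoli replicate 1, 2 or 3 (1.29 to 1.55).

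Sex made no called difference to any member. Male against female IVF embryos gave 0 of 9 by limma, also 0 at an unadjusted p under 0.05, where 0.437% of all genes were called, 0.114% higher and 0.323% lower in males. The 3 female IVF arrays lay on 1 slide with male IVF replicate 5, and the other male IVF arrays lay on other slides. Sex and slide can therefore barely be told apart among the IVF embryos, which the interactions use as well. The interactions of sex with the Purkinje and the CA1 effect also gave 0 of 9 each, with 0 at an unadjusted p under 0.05, against 0.057% of all genes for Purkinje (0.0443% positive, 0.0127% negative) and 1.08% for CA1 (0.589% positive, 0.488% negative). The widest interval was that of Krt19 in the CA1 interaction, at 2.27 (95% interval -0.80 to 5.35).

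Among sister embryos, as deviations from their group means over 33 arrays, Krt8 and Krt18 were the most closely related pair of the 36 (r = 0.69). Next were Krt8 with Cldn4 (0.44) and Cldn6 with Cldn7 (0.43), and the lowest was Cldn6 with Atp1b1 (-0.43). The 2 fluid transport genes had r = -0.16. These arrays share their scaling, and a pair that moves with the 75th percentile is related through it as well. Across the 33 arrays the 3 genes closest to Krt18 were Eef1g, Rps16 and Rplp1, of elongation factor and ribosomal proteins (r = 0.94, 0.93 and 0.88), which themselves ran against the log2 75th percentile within groups (-0.53, -0.69 and -0.79). Closest to Krt7 were Tbrg1, Ipo13 and Mybbp1a (0.83, 0.82 and 0.82, and 0.45, 0.39 and 0.36 as deviations). Aqp3 had among its 3 closest Gata3, a trophectoderm transcription factor (0.80, and 0.61 as deviations), with MGC107533 (0.81) and Uba6 (0.80). Closest to Cldn6 were Rras, H2-Q1 and Fdps (0.82, 0.76 and 0.76, and 0.72, 0.80 and 0.64 as deviations). For Atp1b1 they were Ildr1, Guf1 and Tmem9b (0.76, 0.75 and 0.75, and 0.79, 0.76 and 0.76 as deviations). For Krt19 they were Card19, Lgals7 and Lpl (0.64, 0.62 and 0.61, and 0.64, 0.57 and 0.41 as deviations). Closest to Cldn4 were Kifc5b, Prpf19 and Pds5a (0.76, 0.75 and 0.73, but 0.29, 0.42 and 0.49 as deviations). For Cldn7 they were Dera, Nmd3 and Ywhab (0.77, 0.75 and 0.75, but 0.49, 0.53 and 0.46 as deviations). For Krt8 they were the probes named NAP030387-1, M20632 and Phxr4 (0.90, 0.89 and 0.88, and 0.82, 0.79 and 0.80 as deviations).

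Among other genes of the same structures, keratin and desmosome genes were called higher only, and junction and transport genes were called in both directions. Of 12 further keratin and desmosome genes tested, 2 were called higher in male Purkinje, 4 in male CA1 and 3 in Sertoli clones, 1 each in female Purkinje and female CA1 clones, 0 in cumulus clones, and none lower in any of these 6 comparisons. Their leading gene was Evpl, encoding the cornified envelope and desmosome protein envoplakin, with log2 changes of 2.30 in male CA1, 1.97 in Sertoli, 1.75 in female Purkinje and 2.11 in female CA1 clones (limma adjusted p 0.00047, 0.0030, 0.031 and 0.015). Jup, the desmosome plaque protein plakoglobin, was higher in male CA1 clones (1.70, adjusted p = 0.00083), and Dsp, desmoplakin, in Sertoli clones (0.59, adjusted p = 0.0018). In male Purkinje clones Dsp was 0.35 (adjusted p = 0.050) and turned to -0.10 after quantile normalization.

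Of 21 other tight junction and polarity genes tested, 3 were higher and 1 lower in male Purkinje, 3 higher and 3 lower in male CA1, and 4 higher and 1 lower in Sertoli clones. Among female groups 3 (Purkinje), 1 (CA1) and 1 (cumulus) were higher and none lower. Marveld3, a tight junction membrane protein gene, was higher in male Purkinje (2.37), male CA1 (3.07), Sertoli (2.43) and female Purkinje clones (2.29), with limma adjusted p of 0.00028, 6.5e-06, 0.00023 and 0.0040, and stood at 0.09 in female CA1 clones (adjusted p = 0.99). Pard6b, a polarity gene, and Cldn12 were lower in male CA1 clones (-1.05 and -1.85, adjusted p 1.8e-05 and 0.00086). Of 12 adherens junction genes, 4 were higher and 0 lower in male Purkinje, 4 and 2 in male CA1, 2 and 1 in Sertoli, 2 and 0 in female Purkinje, 0 and 1 in female CA1, and 0 and 0 in cumulus clones. E-cadherin (Cdh1) was lower in CA1 clones of both sexes (-1.01 in males and -0.81 in females, adjusted p 7.2e-06 and 0.0033). Vezt, a cadherin complex gene, was higher in male Purkinje (1.30), male CA1 (0.85), Sertoli (1.13) and female Purkinje clones (0.75).

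Of 13 other water and ion transport genes tested, 2 were higher and 3 lower in male Purkinje, 3 and 2 in male CA1, 1 and 5 in Sertoli, 2 and 4 in female Purkinje, 0 and 2 in female CA1, and 1 and 0 in cumulus clones. Scnn1a, the alpha subunit of the epithelial sodium channel, was higher in male Purkinje (2.52), male CA1 (3.35), Sertoli (1.66), female Purkinje (2.06) and cumulus clones (2.71), with limma adjusted p of 0.00028, 4.7e-06, 0.011, 0.013 and 0.011. In female CA1 clones it was 1.62 (adjusted p = 0.060). Slc12a2, a sodium, potassium and chloride cotransporter gene, was lower (-1.96, adjusted p = 0.00030) and Fxyd4, a regulator of the sodium pump, higher in male CA1 clones (1.66, adjusted p = 7.2e-05).

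Of 17 trophectoderm regulators tested, 4 were higher and 2 lower in male Purkinje, 2 and 3 in male CA1, and 2 and 2 in Sertoli clones. In female Purkinje, female CA1 and cumulus clones the counts were 3 and 0, 2 and 0, and 1 and 0. Hand1, a transcription factor of trophoblast giant cells, lay on the floor in male IVF embryos. It averaged 0.47, 0.49 and -0.34 in male Purkinje, male CA1 and Sertoli clones (limma adjusted p 9.4e-05, 5.1e-05 and 0.0010). In females it was higher by 3.79 in Purkinje and 4.83 in CA1 clones (adjusted p 0.0016 and 0.00024). Grhl2, an activator of epithelial junction genes, was higher in Purkinje clones of both sexes (0.98 and 0.99, adjusted p 3.5e-05 and 0.00060) and of CA1 clones (0.51 and 0.66, adjusted p 0.011 and 0.018). Id2 was lower in male CA1 clones (-1.94, adjusted p = 8.2e-06).

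Markers of other cells were checked beside these values. Of 10 primitive endoderm markers, 6 were lower in each of the male Purkinje, male CA1 and Sertoli groups, 5 in each of the female Purkinje and CA1 groups and 2 in cumulus clones, with 1 higher in male Purkinje and 1 in Sertoli clones. Their summed level, in units of the 75th percentile, was 151.3 to 306.8 in male IVF and 221.5 to 294.2 in female IVF embryos and lay between 143.8 and 308.0 over the clones. In male Purkinje, male CA1, Sertoli and female Purkinje clones Gata4 was on the floor or not well above background throughout the group. Epiblast markers (8 tested) summed to 78.1 to 94.1 in male IVF embryos against 108.0 to 182.8 after male Purkinje transfer. The female sums were 74.1 to 107.2 for IVF against 108.2 to 192.6 for Purkinje clones. Of these 8, 1 was called higher and 2 lower in male Purkinje, 1 and 0 in male CA1, 2 and 2 in Sertoli, 1 and 1 in female Purkinje, 0 and 0 in female CA1, and 1 and 0 in cumulus clones, and the median change was -0.15 in male and -0.20 in female Purkinje clones. Tdgf1, a Nodal co-receptor gene, was lower in male Purkinje, Sertoli and female Purkinje clones (-1.35, -1.1 and -1.60, limma adjusted p 0.0083, 0.031 and 0.015), and Pou5f1, the pluripotency factor gene, in Sertoli clones (-0.73, adjusted p = 0.016). Zfp42 was higher in Purkinje clones of both sexes (1.68 and 1.78, limma adjusted p 4.3e-07 and 5.9e-06), and also in male CA1, Sertoli and cumulus clones (0.72, 0.74 and 0.79). The part of these lists in the members' differences was not tested.

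Most markers of the donor cells did not pass the filter. Of 7 cumulus markers, 5 did not pass the filter, and the 2 that did summed to at most 0.64 in any embryo. Of 7 Sertoli markers 2 were tested. Their sums were 0.55 to 1.76 (median 0.65) in Sertoli clones and 0.20 to 6.01 (median 0.39) in male IVF embryos, and neither marker was called between these groups. Of 10 neuron markers 6 were tested, with sums of 3.65 to 12 in male and 5.80 to 8.38 in female IVF embryos and 1.12 to 4.02 over all clones. None was called higher in a clone group. Called lower were 0 in male Purkinje, 2 in male CA1, 2 in Sertoli, and 1 each in female Purkinje, female CA1 and cumulus clones.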

How the data were processed

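Per the labels' protocols, RNA of single blastocysts was extracted with TRIzol, amplified in 2 linear rounds and hybridised to 1-colour Agilent arrays. The authors deposited scanner tables whose processed and median signals are intensity values from Agilent Feature Extraction, 10.5.1 per the submitters' processing notes; per the file headers, 20 arrays (scanner G2505C) used 10.5.1.1 and 13 earlier arrays (scanner G2505B) 9.5.3.1. The authors also deposited a table of log2 values, centred per probe within each sex as its values show, used as an alternative. The genome build behind the probes is not given in the sources used here, so no probe positions are printed.

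Non-control spots of a probe were averaged, divided by the array's 75th percentile, floored at 0.0929 of it (log2 -3.43) and logged. The later files carry no gene names, so names were joined by probe identifier. Probes were kept when Feature Extraction marked them well above background in more than 50% of any 1 group, when 3 or more arrays exceeded the floor and when every group had 2 or more values; the brightest passing probe stood for a gene. On the 33 arrays 45.0 to 62.4% of probes were well above background, and the number of embryos limits the precision. The 4 Sertoli arrays, on a slide of their own, had the lowest shares (45.0 to 46.0%), beside 48.9% or more on all other arrays. Group means were fitted over all 33 arrays with limma 3.58.1 (R 4.3.3) and eBayes, with 25 residual degrees of freedom and Benjamini-Hochberg adjustment. The code was tested on simulated data.

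Named genes are all 9 members, the 3 genes of each list with the lowest adjusted p in any IVF comparison, and the 3 most correlated with a member. Not every gene that these rules pick is reported here. The members and lists were chosen with earlier results of these data known. Normexp was run on median signals, since mean signals are not in all files; that, array weights, the dimmest probe and a fixed slide block were added after seeing the data.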

Additional observations from a re-analysis of the deposited data

Results flagged for a closer look

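In 54 sets of 4 or 7 embryos (9 genes in 6 groups), 2 had a single embryo far from its sisters by Dixon's criterion, where chance flags about 5% of such sets. Cldn4 in female Purkinje replicate 4 was at 1.48, with the next of its 3 sisters at 0.46. Atp1b1 in Sertoli replicate 4 was at 4.18, with the next of its 3 sisters at 5.18.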

How the results depend on the processing

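The counts of members called that moved by over 1.5 times were these, with the main count first. Male Purkinje against IVF (3) gave 5 after quantile normalization and 1 without the dim Purkinje arrays; male CA1 (3) gave 1 with normexp; Sertoli (3) gave 5 when scaled on probes detected on all arrays. Female Purkinje (1) gave 2 with only the groups compared and 0 without the dim arrays; female CA1 (2) gave 1 with normexp and 0 with only the groups compared. Male Purkinje against CA1 (3) gave 1 without the dim arrays and 5 with array weights. Female Purkinje against CA1 (1) gave 0 with normexp, median scaling or no dim arrays, 2 with only the groups compared and 4 with weights. Male Purkinje against Sertoli (2) gave 0 with normexp, quantile normalization or no dim arrays, 1 with median scaling, no filter, slide as a random block or only the groups compared, and 4 with weights. Male CA1 against Sertoli (2) gave 1 with normexp, no filter, the mean of a gene's probes, only the groups compared or the dimmest probe. The cause was not tested. Leaving out 1 embryo gave 2 to 3, 2 to 3, 3 to 4, 1 to 1, 1 to 2 and 0 to 0 for the IVF comparisons in the order used above, 2 to 4, 1 to 1, 1 to 3 and 1 to 2 for the donor comparisons, and 0 to 0 for the sexes and both interactions.

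Values that turned in direction were, after quantile normalization, Krt18 (-0.38) and Cdh1 (-0.37) in male Purkinje clones against IVF, Krt8 (-0.57) and Krt18 (-0.19) in male Purkinje against CA1 clones, and Krt8 (-0.60) in female Purkinje against CA1 clones. Both Krt8 values were then called lower (limma adjusted p 0.0056 and 0.0064), where the main fit gave 0.41 and 0.42, neither called. Dsp in male Purkinje clones against IVF was -0.091 with normexp, -0.10 after quantile normalization and -0.10 as the mean of its probes. Foxl2 there was 1.09 with normexp.

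Replicate numbers did not pair the embryos: over 99 same-numbered pairs the median correlation of deviations was -0.01, with 15 above 0.1. With the replicate number as a block, the male CA1 count was 1 and the female Purkinje count 2; the other counts stayed within 1.5 times. Median scaling moved the median of all genes to -0.33 in female Purkinje clones against IVF and -0.38 against CA1 clones, from 0.08 and 0.00. In the authors' table the median of every probe is 0 within each sex, so the sexes were not compared with it. Counts over all genes moved as well; leaving out no single embryo, they ranged from 1682 to 5959 (main 4513), 3087 to 5796 (4894) and 1961 to 5933 (4075) for male Purkinje, CA1 and Sertoli clones against IVF. For the female groups they ranged from 309 to 4360 (3114), 614 to 2499 (2098) and 196 to 1432 (839). The donor comparisons gave 594 to 5446 (2921), 83 to 3769 (1741), 185 to 2884 (756) and 354 to 4809 (1869), the IVF sexes 13 to 144 (69), and the interactions 0 to 32 (9) and 0 to 362 (170). Median scaling turned the share of called genes that were higher from 63.9% to 29.2% in male and from 66.2% to 14.2% in female Purkinje clones against IVF.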
